A study of Arabidopsis thaliana with 18 samples.

Results

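The genes described here are 10 genes of chlorophyll synthesis in Arabidopsis thaliana, chosen by their locus numbers from 33602 genes in the deposited gene counts. They are HEMA1, CHLH, CHLI1, CHLD, GUN4, CRD1, PORA, PORB, PORC and CAO. These genes, and the gene lists used below, were chosen with earlier results of these data known. Their counts beside the shares of all genes are therefore descriptions. The same loci hold 42 of 120717 introns and 8 of 7973 alternative splicing bins, which are stretches of a gene that some of its transcripts hold and others do not. Whole plants of the gemin2 mutant and of the wild type (WT), both labelled Col, were 9 days old at harvest and had grown in continuous white light. In 3 groups of libraries per genotype, plants had stayed at 22 °C, had spent the last 1 h at 10 °C or had spent the last 24 h at 10 °C. Each of the 6 groups has 3 libraries, named here by the letters A, B and C of the deposited tables. GEMIN2 is known for its role in the assembly of spliceosomal small nuclear ribonucleoproteins, and the labels do not name the mutant allele.

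Chlorophyll is built in plastids from glutamate. HEMA1, a glutamyl-tRNA reductase, starts the path to 5-aminolevulinic acid (ALA), which is turned by further enzymes into protoporphyrin IX. Magnesium chelatase (subunits CHLH, CHLI and CHLD, with the activator GUN4) commits this porphyrin to chlorophyll, the cyclase with its subunit CRD1 closes the last ring, the light-dependent reductases PORA, PORB and PORC make chlorophyllide, and CAO oxidizes chlorophyllide a on the way to chlorophyll b.

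Gene counts per library summed to between 15675913 and 53766089. Genes of the chloroplast genome took 17.6% of them in gemin2 library C at 22 °C, against 0.232% to 3.17% in the other 17 libraries. Genes of rRNA took 4.89% there, against 0.135% to 0.896% elsewhere. All 3 gene calls between gemin2 and WT at 22 °C described below were also made without this library. Other edgeR calls were lost without it. For PORB these were the gemin2 change over 1 h of cold (adjusted p = 0.0564) and its difference from the WT change (adjusted p = 0.0547). The rises of CHLD intron I013 and CAO bin E005 in gemin2 after 24 h of cold were lost too (adjusted p = 0.0971 and 0.0845). GEMIN2 (AT1G54380), the gene named in the mutant's label, was lower in every gemin2 group, with a log2 change of -1.81 ± 0.12 at 22 °C (adjusted p = 3.14e-09). Leaf markers were present at 17928 to 51618 CPM in sum and root markers at 48.0 to 94.0 CPM, whereas the 4 floral organ markers summed to 0.102 to 0.970 CPM, with AP1, AG or AP3 at 0 throughout 5 of the 6 groups. Whether the 3 libraries of a group came from separately grown plants is not stated, and the p-values speak only of the spread among these libraries, which may be technical.

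Levels are given as CPM, counts relative to library size after TMM scaling, and changes are log2 fold changes ± SE from 3 libraries per group. A gene is called higher or lower where its adjusted p is under 0.05 (edgeR quasi-likelihood, Benjamini-Hochberg over the 21918 genes tested). All 10 genes were tested. In gemin2 against WT, 2 of them were higher and 1 lower at 22 °C, where 10.5% of all genes tested were higher and 10.2% lower. The counts were 3 higher and 4 lower after 1 h at 10 °C, against 16.6% and 17.4% of all genes tested, and 3 higher and 3 lower after 24 h, against 21.5% and 18.2%. PORA is among the higher genes at 22 °C and after 1 h, but it passed the filter on low counts only through its gemin2 libraries, so its calls add no support to these counts. The median log2 change of the 10 genes was -0.13, 0.01 and 0.16 in the 3 conditions, beside 0.00, 0.00 and 0.02 over all genes tested. PORB was called in all 3 conditions and CHLH in none, and the other 8 were called in 1 or 2.

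**Figure D1:**
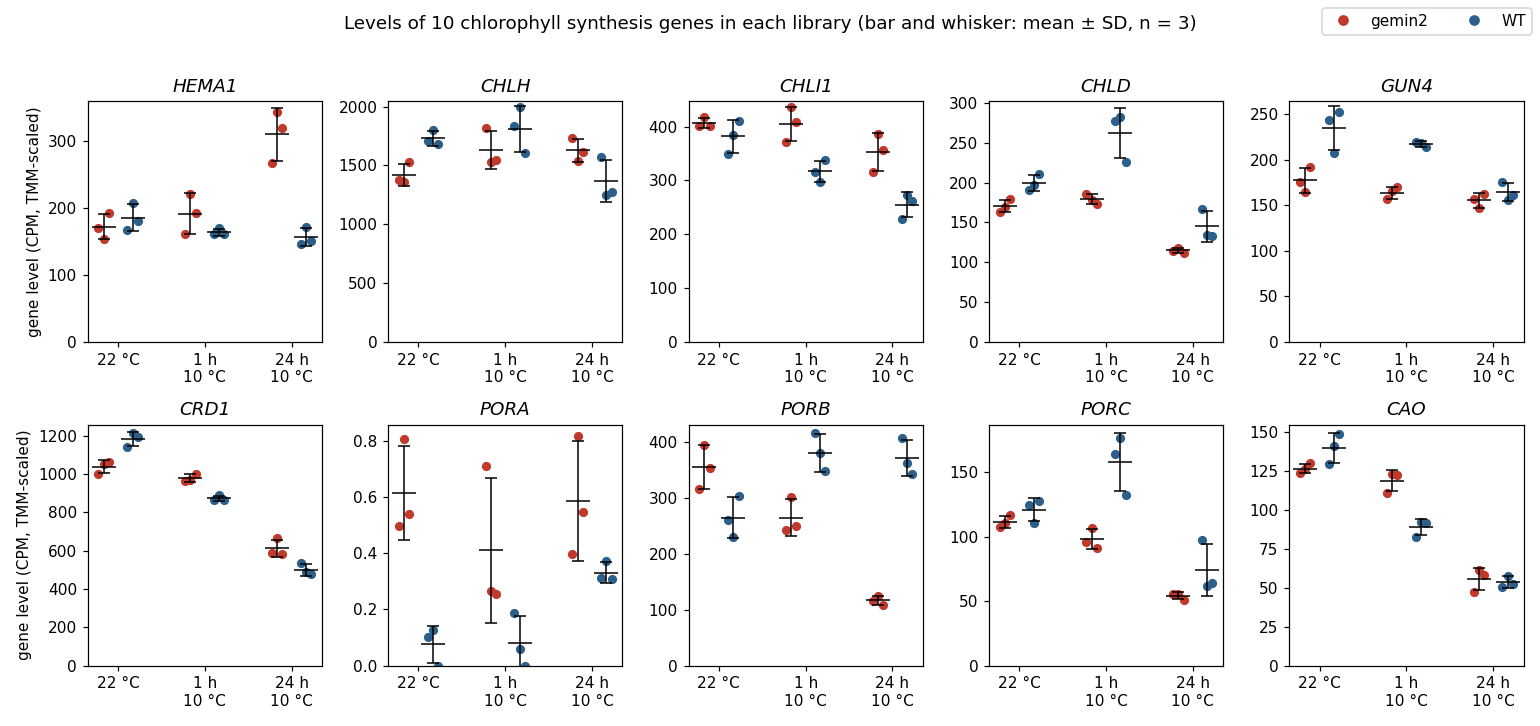
Gene level in CPM (vertical axis, from 0, scaled per gene) of each of 10 genes in all 18 libraries, in gemin2 (red, left of each pair) and WT (blue) at 22 °C and after 1 h and 24 h at 10 °C, with mean ± SD. After 24 h the 3 gemin2 libraries lie at 109 to 125 CPM for PORB and at 266 to 343 CPM for HEMA1, against 344 to 407 CPM and 146 to 171 CPM in WT.

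HEMA1 (AT1G58290, chromosome 1, 21623726 to 21626200) encodes the first committed enzyme of ALA synthesis. After 24 h at 10 °C it stood at 266, 343 and 319 CPM in gemin2, against 146, 171 and 151 CPM in WT. Every gemin2 library was above every WT library, and the log2 change was 0.99 ± 0.12 (adjusted p = 1.66e-06), or 1.99-fold. In bulk RNA, more cells of a type and more RNA per cell cannot be told apart, here or for any gene below. At 22 °C the groups overlapped (172 ± 18.9 CPM in gemin2 and 185 ± 20.2 CPM in WT, SD, n = 3 each; log2 change -0.11 ± 0.12, adjusted p = 0.566), as they did after 1 h (0.23 ± 0.12, adjusted p = 0.147). From 22 °C to 24 h at 10 °C the log2 change was 0.85 ± 0.12 in gemin2 (adjusted p = 2.57e-06) and -0.25 ± 0.12 in WT (adjusted p = 0.0855). The test of that difference, the genotype by cold interaction, gave 1.10 ± 0.17 (adjusted p = 0.00014).

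CHLH (AT5G13630, chromosome 5, 4387334 to 4392227) encodes the large subunit that binds the porphyrin. In the main fit it was not called between gemin2 and WT in any condition. Of 12 alternative fits, 2 called it at 22 °C and 2 after 24 h. The replicate block, which takes the library letter as a block, was among them at both times. At 22 °C the libraries had 1375, 1357 and 1530.2 CPM in gemin2, against 1706, 1805 and 1679 CPM in WT. These groups did not overlap, but the log2 change of -0.28 ± 0.11 missed the threshold (adjusted p = 0.0772). After 24 h the log2 change was 0.26 ± 0.11 (adjusted p = 0.0752). With the replicate block both passed, at adjusted p = 0.0466 at 22 °C and 0.0446 after 24 h. The cold change itself differed between the genotypes, being 0.20 ± 0.11 in gemin2 (adjusted p = 0.134) and -0.34 ± 0.11 in WT (adjusted p = 0.0136), with an interaction of 0.54 ± 0.16 (adjusted p = 0.0263). The WT call was lost in 2 of 6 fits that left out 1 library (adjusted p = 0.0643 and 0.0642). The interaction call was lost in 7 of the 12 fits that left out 1 library, at adjusted p from 0.052 to 0.0702.

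CHLI1 (AT4G18480, chromosome 4, 10201672 to 10203469) and CHLD (AT1G08520, chromosome 1, 2696412 to 2700959) encode the subunits that hydrolyse ATP and that bridge it to CHLH. In the cold, CHLI1 was higher and CHLD lower in gemin2 than in WT. From 22 °C to 24 h at 10 °C both fell in WT (-0.58 ± 0.10 and -0.46 ± 0.10, adjusted p = 2.92e-05 and 0.00038). In gemin2 the changes were -0.21 ± 0.10 and -0.57 ± 0.10 (adjusted p = 0.0721 and 3e-05). After 24 h at 10 °C CHLI1 had 315, 386 and 357 CPM in gemin2, against 229, 274 and 261 CPM in WT. Its gemin2 libraries were all higher, with a log2 change of 0.47 ± 0.10 (adjusted p = 0.000623), after 0.35 ± 0.10 at 1 h (adjusted p = 0.00777) and 0.09 ± 0.10 at 22 °C (adjusted p = 0.537). CHLD after 1 h had 186, 179 and 173 CPM in gemin2, against 278, 283 and 226 CPM in WT. All 3 of its gemin2 libraries were lower (-0.55 ± 0.10, adjusted p = 0.000211). After 24 h CHLD was lower still in both genotypes, at 115 ± 3.20 CPM in gemin2 and 145 ± 19.2 CPM in WT (SD, n = 3 each), a log2 change of -0.34 ± 0.10 (adjusted p = 0.00848). WT library A, at 167 CPM, lay apart from B and C at 135 and 133 CPM, and without it the change was -0.22 (adjusted p = 0.0692).

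GUN4 (AT3G59400, chromosome 3, 21948717 to 21949710) encodes the activator of the chelatase and was lower in gemin2 at 22 °C and after 1 h. At 22 °C it had 175, 165 and 192 CPM in gemin2, against 244, 207 and 253 CPM in WT. No gemin2 library reached the lowest WT library, and the log2 change was -0.40 ± 0.09 (adjusted p = 0.00221). The change after 1 h was -0.41 ± 0.09 (adjusted p = 0.00122), and after 24 h it was -0.08 ± 0.09 (adjusted p = 0.483). At that time the levels were 155 ± 8.13 CPM in gemin2 and 164 ± 9.89 CPM in WT (SD, n = 3 each), and the groups overlapped. The interaction at 24 h was 0.32 ± 0.12 and did not pass (adjusted p = 0.086).

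CRD1 (AT3G56940, chromosome 3, 21076505 to 21078443) encodes a subunit of the cyclase and was the highest of the 10 genes per length, at 695 ± 22.4 CPM per kb in gemin2 and 793 ± 25.1 CPM per kb in WT at 22 °C (SD, n = 3 each). CAO (AT1G44446, chromosome 1, 16848359 to 16851224), which encodes chlorophyllide a oxygenase, was the lowest but PORA, at 59.0 ± 1.45 CPM per kb in gemin2 and 65.2 ± 4.59 CPM per kb in WT. Both fell most with cold in WT. CRD1 after 24 h at 10 °C had 587, 665 and 583 CPM in gemin2, against 536, 486 and 478 CPM in WT. The gemin2 libraries were all higher (0.29 ± 0.08, adjusted p = 0.00907), a call that was lost without library B of gemin2 (adjusted p = 0.0691) and with only these 2 groups in the fit (adjusted p = 0.104). CAO differed after 1 h, with 111, 123 and 122 CPM in gemin2, against 82.8, 92.0 and 91.7 CPM in WT. That was a log2 change of 0.42 ± 0.09 (adjusted p = 0.00155), and after 24 h the groups overlapped (0.06 ± 0.09, adjusted p = 0.65). CRD1 overlaps the neighbouring gene AT3G56950 by 147 bases, and since the kit does not mark strand, reads from that stretch cannot be assigned to either gene.

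Protochlorophyllide is reduced in the light by the POR enzymes. In Arabidopsis PORA is known as the form of dark-grown seedlings, PORB as a form present in dark and light, and PORC as a form of the light. PORB (AT4G27440, chromosome 4, 13725546 to 13727353) gave the largest genotype difference of the 10 genes after 24 h. At that time it had 116, 125 and 109 CPM in gemin2, against 407, 362 and 344 CPM in WT. Every gemin2 library lay below every WT library, and the log2 change was -1.67 ± 0.12 (adjusted p = 9.17e-10). The direction at 22 °C was the opposite, with 316, 395 and 355 CPM in gemin2 against 259.8, 231 and 304 CPM in WT. The gemin2 libraries were all higher (0.42 ± 0.12, adjusted p = 0.0123), but this call was lost without library B of WT (adjusted p = 0.0732) or library B of gemin2 (adjusted p = 0.0759). After 1 h PORB had 243, 303 and 249.6 CPM in gemin2, against 416, 380.3 and 348 CPM in WT. All gemin2 libraries were below the WT libraries (-0.52 ± 0.12, adjusted p = 0.00158).

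The cold response of PORB had opposite signs in the genotypes. From 22 °C to 24 h at 10 °C it fell in gemin2 (-1.60 ± 0.12, adjusted p = 1.68e-10) and rose in WT (0.48 ± 0.12, adjusted p = 0.00121). The interaction was -2.09 ± 0.16 (adjusted p = 3.91e-08), and it was called under each alternative run, including each library left out in turn. After 1 h the interaction was -0.95 ± 0.16 (adjusted p = 0.0166), where 0.0547% of all genes tested had a lower interaction call, and this call was lost in 5 of the 12 fits without 1 library (adjusted p from 0.0547 to 0.0917).

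PORC (AT1G03630, chromosome 1, 907642 to 909376) was lower in gemin2 after cold. After 1 h it had 96.1, 107 and 91.7 CPM in gemin2, against 164, 177 and 133 CPM in WT, which did not overlap (-0.69 ± 0.14, adjusted p = 0.000845). After 24 h the libraries had 55.8, 55.7 and 51.1 CPM in gemin2, against 97.7, 61.8 and 63.9 CPM in WT. WT library A stood above the others here as it did for CHLD. The log2 change of -0.46 ± 0.14 (adjusted p = 0.0129) became -0.21 without it (adjusted p = 0.128). At 22 °C the change was -0.12 ± 0.14 (adjusted p = 0.584).

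PORA (AT5G54190, chromosome 5, 21990912 to 21992812) had few counts in these light-grown plants. Over the 3 libraries of a group its counts summed to 57 at 22 °C, 54 after 1 h and 49 after 24 h in gemin2, against 4, 6 and 31 in WT. Library C of WT had none at 22 °C and after 1 h, where 3 counts would be 0.145 and 0.0849 CPM. The log2 change was 3.03 ± 0.82 at 22 °C (adjusted p = 0.0112), 2.56 ± 0.75 after 1 h (adjusted p = 0.0119) and 0.82 ± 0.58 after 24 h (adjusted p = 0.276). Since PORA passed the filter on low counts only through its gemin2 libraries, its higher calls there are no support for a difference. The call at 22 °C was lost without library C of WT (adjusted p = 0.0543), and the call at 1 h was lost without library B or C of WT or library A of gemin2 (adjusted p = 0.054, 0.0662 and 0.083). PORA and PORB share a run of 48 identical exon bases, and how the authors' counting placed reads from it is not given in the sources used here.

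Per length, the 3 POR genes together stood at 114 ± 7.05 CPM per kb in gemin2 after 24 h at 10 °C, against 292 ± 34.7 CPM per kb in WT (SD, n = 3 each). PORB made up 65.7 ± 0.817% of that sum in gemin2 and 81.9 ± 2.69% in WT, whereas PORC made up 34.0 ± 0.916% in gemin2 and 18.1 ± 2.70% in WT. At 22 °C the sum was 309 ± 26.9 CPM per kb in gemin2 and 257 ± 29.7 CPM per kb in WT, and PORB made up 73.9 ± 1.99% and 66.1 ± 1.75% of it. The POR sum was thus lower in gemin2 than in WT after 24 h and the order was the other way at 22 °C, where the groups' ranges overlapped (281 to 334 in gemin2 and 228 to 287 CPM per kb in WT).

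**Figure D2:**
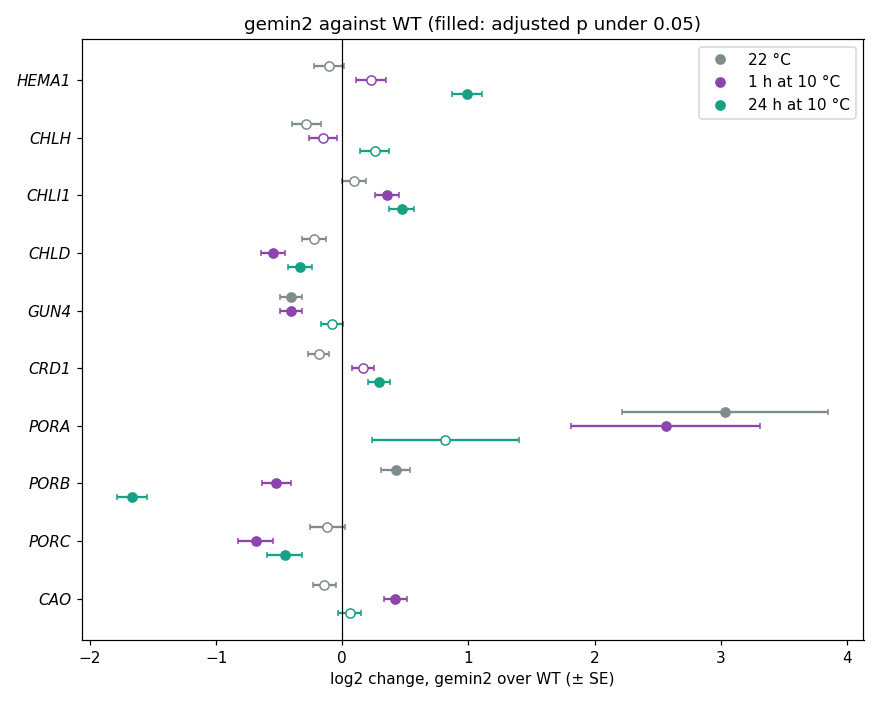
Log2 change (horizontal axis, ± SE, n = 3 per group) of gemin2 over WT for the 10 genes at 22 °C (grey), after 1 h (violet) and after 24 h (green) at 10 °C, filled where the adjusted p is under 0.05. PORB lies at 0.42, -0.52 and -1.67 in turn, HEMA1 reaches 0.99 after 24 h, and the wide bars of PORA rest on few counts.

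The sequences upstream of PORA and PORB are shown because both hold a letter string known from genes of the circadian clock, the evening element AAAATATCT, which 2.12% of 32834 Arabidopsis promoters of the same length hold. The 250 bases before each gene's start (RefSeq TAIR10.1, chr5:21992813-21993062 minus strand and chr4:13725296-13725545 plus strand) were searched on both strands, and the capitals mark the match.
PORA: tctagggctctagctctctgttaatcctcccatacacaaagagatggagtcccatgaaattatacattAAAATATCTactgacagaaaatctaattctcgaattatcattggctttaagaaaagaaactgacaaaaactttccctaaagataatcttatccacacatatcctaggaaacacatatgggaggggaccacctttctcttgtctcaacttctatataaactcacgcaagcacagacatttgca
PORB: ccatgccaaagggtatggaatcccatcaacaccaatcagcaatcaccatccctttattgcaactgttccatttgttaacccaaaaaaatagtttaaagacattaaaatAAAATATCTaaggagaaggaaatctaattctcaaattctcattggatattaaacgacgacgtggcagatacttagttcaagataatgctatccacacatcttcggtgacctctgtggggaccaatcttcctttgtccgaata
Neither holds the G-box CACGTG, which 6.77% of all promoters hold, or CCGAC, the core of the cold-responsive CRT/DRE element, which 13.2% hold. A match is a description of letters and no evidence of binding.

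In the cold the genes fell more often than they rose. From 22 °C to 24 h at 10 °C, 1 of the 10 genes was higher and 5 were lower in gemin2, where 30% of all genes tested were higher and 29.8% lower. In WT 2 were higher and 7 lower, against 26.8% and 28.4% of all genes tested. The median of the 10 genes was -0.39 in gemin2 and -0.49 in WT, beside 0.00 and -0.02 over all genes. The largest falls in WT were those of CAO (-1.38 ± 0.09, adjusted p = 6.31e-11) and CRD1 (-1.24 ± 0.09, adjusted p = 7.68e-11). The same 2 genes had -1.18 ± 0.09 and -0.76 ± 0.08 in gemin2 (adjusted p = 5.24e-10 and 9.54e-08). For CRD1 the difference between the genotypes passed (interaction 0.48 ± 0.12, adjusted p = 0.00948), and for CAO it did not (0.20 ± 0.13, adjusted p = 0.343). PORC fell in both as well, by 1.04 in gemin2 (SE 0.14, adjusted p = 2.19e-06) and by 0.71 in WT (SE 0.14, adjusted p = 0.000222) on the log2 scale. PORA was higher in WT (2.16 ± 0.88, adjusted p = 0.043), a call that was lost in 5 of 6 fits without 1 library, and its change in gemin2 was -0.05 ± 0.54 (adjusted p = 0.942). In all, interactions at 24 h were called for 4 of the 10 genes, HEMA1, CHLH and CRD1 above zero and PORB below it, where 7.42% of all genes tested were above and 6.5% below.

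Fewer of the 10 genes were called after 1 h of cold. In gemin2 none of the 10 genes was higher and 1 was lower than at 22 °C, against 6.17% and 2.96% of all genes tested, and in WT 3 were higher and 3 lower, against 14.4% and 10.7%. In WT CAO and CRD1 had already fallen (-0.65 ± 0.09, adjusted p = 2.23e-05, and -0.44 ± 0.08, adjusted p = 0.000667), and CHLD and PORB had risen (0.40 ± 0.10, adjusted p = 0.00481, and 0.53 ± 0.12, adjusted p = 0.0022). The change of PORB in WT was thus of similar size after 1 h and after 24 h (0.48 ± 0.12). The WT calls for CHLI1 (-0.27 ± 0.10, adjusted p = 0.0464) and PORC (0.38 ± 0.14, adjusted p = 0.047) were lost in 4 and 5 of 6 fits without 1 library. Both were also lost with no filter on low counts (adjusted p = 0.0511 and 0.0512). The PORC call was lost as well with DESeq2, with RLE factors and without rRNA and organelle genes (adjusted p = 0.0584, 0.0666 and 0.076). In gemin2 the 1 call was PORB (-0.42 ± 0.12, adjusted p = 0.0206), lost in 4 of 6 fits without 1 library. Between 1 h and 24 h at 10 °C, 1 of the 10 genes was higher and 5 were lower in gemin2, against 28.3% and 30.2% of all genes tested, and 1 was higher and 7 lower in WT, against 23.8% and 28.7%. The gene that was higher was HEMA1 in gemin2 (0.70, adjusted p = 3.27e-05) and PORA in WT (2.24, adjusted p = 0.022), the PORA call being lost in 3 of 6 fits without 1 library.

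**Figure D3:**
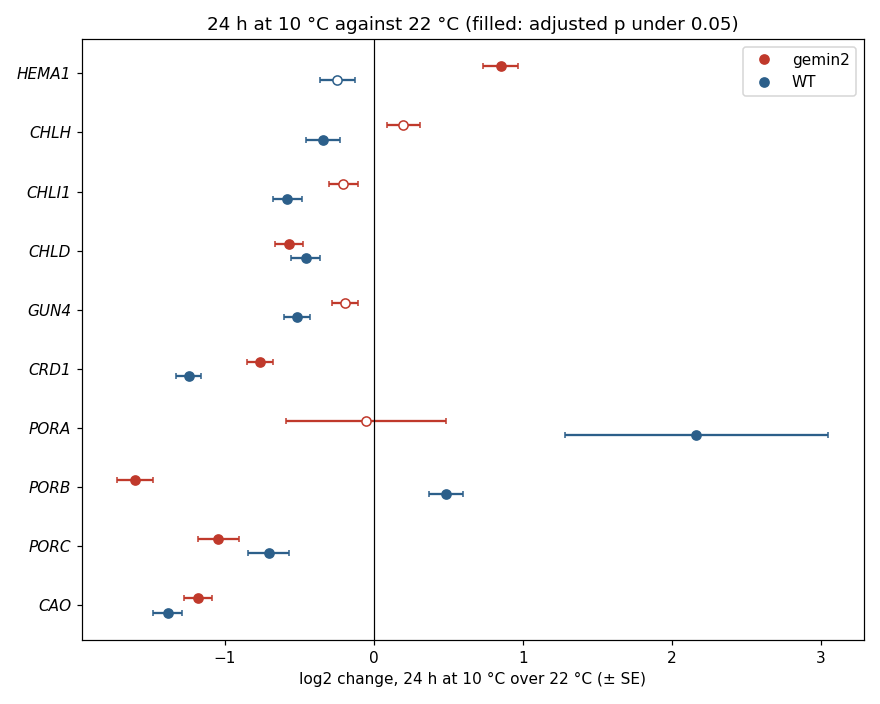
Log2 change (horizontal axis, ± SE, n = 3 per group) of 24 h at 10 °C over 22 °C for the 10 genes in gemin2 (red, upper) and WT (blue, lower), filled where the adjusted p is under 0.05. PORB lies at -1.60 in gemin2 and at 0.48 in WT, and HEMA1 at 0.85 and -0.25.

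CRD1 and CAO, and likewise CHLD and PORC, had close profiles. Across the 18 libraries their log2(CPM + 0.5) had a Pearson r of 0.966, and that of CHLD and PORC was 0.967, whereas HEMA1 and PORB had an r of -0.895. These are descriptions over 18 libraries that share 6 groups, so most of each r is the pattern of the group means. The sequences upstream of CRD1 and CAO are shown with capitals on each G-box and, in CRD1, on a CCGAC on the other strand, read here as GTCGG (RefSeq TAIR10.1, chr3:21076255-21076504 plus strand and chr1:16851225-16851474 minus strand).
CRD1: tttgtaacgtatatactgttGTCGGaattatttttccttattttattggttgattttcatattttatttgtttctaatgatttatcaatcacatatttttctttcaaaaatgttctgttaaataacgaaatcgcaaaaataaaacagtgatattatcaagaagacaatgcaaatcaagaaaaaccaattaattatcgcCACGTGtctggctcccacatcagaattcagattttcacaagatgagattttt
CAO: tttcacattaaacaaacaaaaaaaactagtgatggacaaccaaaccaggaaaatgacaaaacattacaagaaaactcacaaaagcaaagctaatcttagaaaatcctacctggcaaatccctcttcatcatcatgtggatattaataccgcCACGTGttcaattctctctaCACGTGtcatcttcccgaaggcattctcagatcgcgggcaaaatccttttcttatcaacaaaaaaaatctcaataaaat
CAO holds 2 G-boxes and CRD1 1. CHLH and PORC hold 1 each as well, so 4 of the 10 promoters hold the string, against 6.77% of all promoters. CCGAC is in 3, those of CHLH, CHLI1 and CRD1, against 13.2% of all promoters. CHLD holds neither string. Whether the strings have a part in the profiles was not tested. Outside the 10 genes, and among 14783 genes with a mean of at least 5 CPM, the profile most like that of CAO was BEE2 (r = 0.986), followed by AT5G16160 (0.981) and J20 (0.98). For CRD1 it was CRR3 (0.981), LHCB5 (0.979) and AT1G75690 (0.977). For PORB it was AT4G27240 (0.948), ATPIN7 (0.934) and GATL3 (0.932), and for HEMA1 ATNEK5 and PI4K.GAMMA.4 (0.939 each) and AT1G10050 (0.932). CHLI1 had CLPP4 (0.975), AT3G26000 (0.965) and AT1G53210 (0.962), CHLD had NDH-O (0.976), RALFL24 (0.973) and AT5G24165 (0.971), and PORC had UREG (0.975), AT2G21530 (0.973) and AT1G23000 (0.968). The highest values were lower for CHLH, with AT1G52870 (0.891), AT3G09600 (0.862) and chy1 (0.853), and for PORA, with CAT1 (0.878), AT3G56720 (0.863) and ATPLC2 (0.861). GUN4 had AT1G54355 (0.958), AT3G43540 (0.944) and AT1G54350 (0.942). The locus numbers of AT1G54355 and AT1G54350 are close to that of GEMIN2 (AT1G54380). Whether this bears on their profiles was not tested.

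The other genes of the pathway come from lists by step. Of 9 tested genes between ALA and protoporphyrin IX, 8 were lower after 24 h at 10 °C than at 22 °C in gemin2 and 8 in WT, with medians of -0.86 and -0.85, where 29.8% and 28.4% of all genes tested were lower. Against WT, gemin2 had 2 of the 9 higher and 3 lower after 24 h, where 21.5% of all genes tested were higher and 18.2% lower. HEMD, uroporphyrinogen III synthase, was lower in gemin2 in all 3 conditions (-0.75 ± 0.13, -0.93 ± 0.13 and -0.84 ± 0.14, adjusted p = 0.000343, 1.94e-05 and 6.55e-05). HEMF2, a coproporphyrinogen III oxidase, was lower after 24 h (-1.22 ± 0.16, adjusted p = 6.14e-06), and its relative HEMF1 was higher (0.36 ± 0.08, adjusted p = 0.00204).

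Of 7 genes of ALA synthesis other than HEMA1, 1 was higher and 3 were lower in gemin2 after 24 h, against 21.5% and 18.2% of all genes tested. GSA1, an enzyme of the last step to ALA, was lower in gemin2 in each condition (-0.46 ± 0.08 at 22 °C, -0.55 ± 0.08 after 1 h and -0.50 ± 0.08 after 24 h, adjusted p = 0.000369, 3.87e-05 and 5.02e-05). FLU, which holds back glutamyl-tRNA reductase in the dark, was lower as well (-0.91 ± 0.18, -0.86 ± 0.18 and -1.14 ± 0.18, adjusted p = 0.00189, 0.00158 and 0.000109). HEMA2, the second glutamyl-tRNA reductase gene, was higher in all 3 conditions (0.43 ± 0.13, 0.50 ± 0.12 and 0.38 ± 0.13, adjusted p = 0.0175, 0.00301 and 0.0188). HEMA1 and HEMA2 share a run of at most 49 identical bases.

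Of 6 other genes of the magnesium branch, 5 were lower after 24 h of cold in gemin2 and 6 in WT, against 29.8% and 28.4% of all genes tested. CHLM, the magnesium protoporphyrin methyltransferase, had -2.04 ± 0.09 in gemin2 and -2.10 ± 0.09 in WT, adjusted p = 9.10e-14 and 9.93e-14. DVR, a divinyl reductase, was higher in gemin2 than in WT after 24 h (0.42 ± 0.10, adjusted p = 0.00279). CHLG, chlorophyll synthase, was lower in gemin2 at 22 °C (-0.44 ± 0.08, adjusted p = 0.000518) and after 1 h (-0.22 ± 0.08, adjusted p = 0.0379).

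In the haem and bilin branch 2 of 7 genes were higher and 3 lower in gemin2 after 24 h, against 21.5% and 18.2% of all genes tested. Among the lower genes were HY2, phytochromobilin synthase (-1.09 ± 0.17, adjusted p = 3.60e-05), and HO2, a haem oxygenase homologue (-0.79 ± 0.10, adjusted p = 3.32e-06). Of 11 genes of chlorophyll breakdown 5 were higher and 1 lower in gemin2 after 24 h, set against the same shares. NYC1, a chlorophyll b reductase, was higher at 22 °C (0.92 ± 0.09, adjusted p = 2.59e-07), and SGR1, a magnesium dechelatase, was higher in all 3 conditions (0.59 ± 0.13, 0.73 ± 0.13 and 0.96 ± 0.13, adjusted p = 0.00263, 0.000211 and 6.54e-06). CLH2, a chlorophyllase, was higher after 24 h (1.45 ± 0.18, adjusted p = 2.65e-06).

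Of 13 regulators of these genes, 3 were higher and 3 lower in gemin2 after 24 h, which is near the 21.5% and 18.2% of all genes tested. At 22 °C 2 were higher and 3 lower, against 10.5% and 10.2% of all genes tested. After 1 h 3 were higher and 6 lower, against 16.6% and 17.4%. PIF1, a phytochrome-interacting factor that acts on chlorophyll synthesis genes, was lower (-1.03 ± 0.11, adjusted p = 2.25e-07), as was the GATA factor CGA1 (-0.83 ± 0.12, adjusted p = 1.20e-05), and FHY3, which promotes expression in phytochrome signalling, was higher (0.59 ± 0.09, adjusted p = 1.61e-05). PIF4 was higher in gemin2 at 22 °C (0.90 ± 0.14, adjusted p = 9.69e-05) and after 1 h (1.13 ± 0.14, adjusted p = 4.44e-06). HYH, a bZIP factor close to HY5, was lower in all 3 conditions (-0.99 ± 0.16 at 22 °C, adjusted p = 0.000148).

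**Figure D4:**
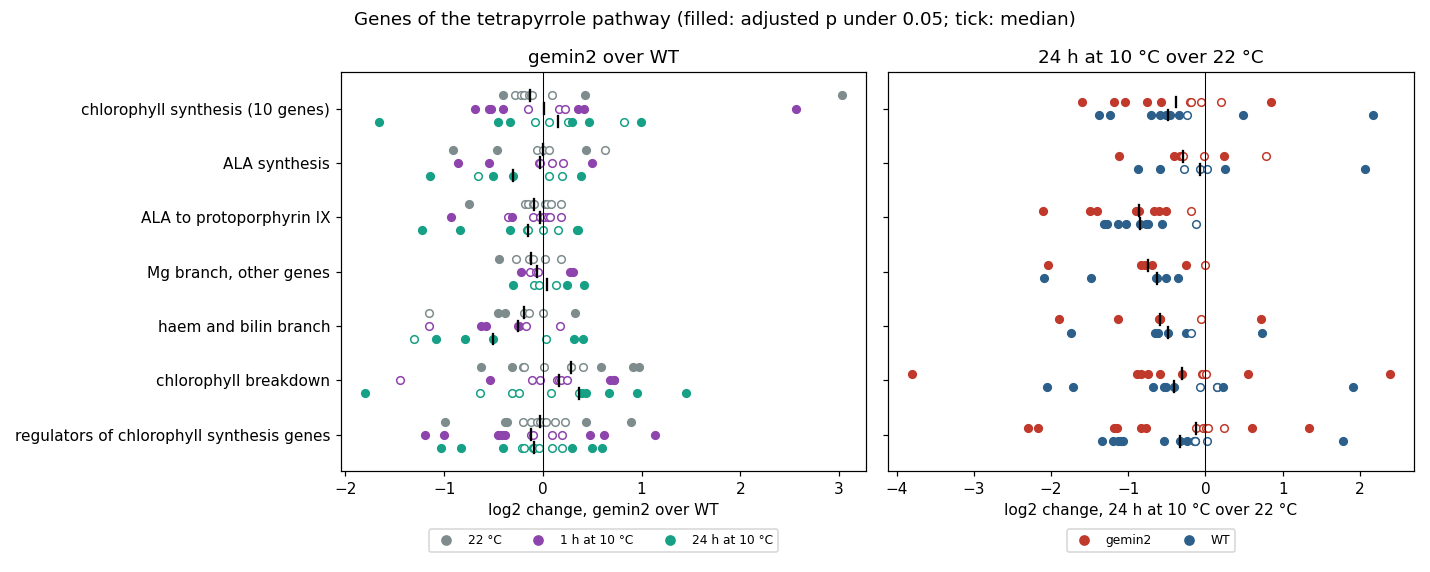
Log2 changes (horizontal axes) of the 10 genes and of 6 lists of tetrapyrrole and regulator genes (rows), for gemin2 over WT in 3 conditions (left) and for 24 h at 10 °C over 22 °C in each genotype (right), each point a gene, filled where the adjusted p is under 0.05, with a tick at the median. The list from ALA to protoporphyrin IX has medians of -0.86 in gemin2 and -0.85 in WT on the right.

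Leaf markers differed between the genotypes at the same time as some of these genes. Of 4 leaf markers, 3 were lower in gemin2 at 22 °C and 3 after 1 h, and 1 after 24 h. Of all genes tested 10.2%, 17.4% and 18.2% were lower in these conditions. Their summed level ran from 25501 to 30496 CPM in gemin2 at 22 °C, against 41422 to 45363 CPM in WT, and from 17928 to 23507 CPM in gemin2 after 24 h, against 24258 to 28051 CPM in WT. None of the 4 root markers was higher in gemin2 in any condition, against 10.5%, 16.6% and 21.5% of all genes tested. In turn 1, 3 and 2 of them were lower, against the same 10.2%, 17.4% and 18.2%. After 24 h of cold 3 of the 4 leaf markers were lower than at 22 °C in each genotype. Of all genes tested 29.8% were lower in gemin2 and 28.4% in WT. The part of these markers in the changes of the chlorophyll synthesis genes was not tested.

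Reads inside introns were compared with the count of their own gene. Of the 42 introns 22 were tested, in 7 genes; those of PORA and CAO held too few counts, and GUN4 has no intron in the table. In gemin2 against WT, 1 intron was higher at 22 °C, 4 after 1 h and 1 after 24 h, against 4.06%, 12.1% and 15.3% of the 9366 introns tested, and none of the 22 was lower, against 0.982%, 1.69% and 1.63%. At an unadjusted p under 0.05 the introns passing in either direction were 3, 7 and 5. The intron called in each condition was I013 of CHLD, a 104-base intron between coding exons, 13th of 14 in the gene. It is shown with 10 bases of exon on either side, its first and last 2 bases in capitals (RefSeq TAIR10.1, intron at chr1:2700414-2700517, plus strand).
CHLD I013: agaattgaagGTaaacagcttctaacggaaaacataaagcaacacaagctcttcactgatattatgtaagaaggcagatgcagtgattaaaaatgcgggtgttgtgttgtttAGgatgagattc

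Counts in I013 were 0.284, 0.581 and 0.403% of the count of CHLD in gemin2 at 22 °C, against 0.135, 0.159 and 0.138% in WT. After 1 h the shares were 0.699, 0.837 and 0.816% in gemin2, against 0.0503, 0.134 and 0.125% in WT. After 24 h they were 0.866, 0.748 and 0.975% in gemin2, against 0.155, 0.114 and 0.203% in WT. No gemin2 library overlapped a WT library in any condition, and the highest share of any library was below 1%. The intron has 104 bases and the gene an effective width of 2549 bases. These shares of reads therefore do not give the share of transcripts that keep the intron. The log2 change relative to the gene was 1.56 ± 0.41 at 22 °C (adjusted p = 0.0202), 2.83 ± 0.35 after 1 h (adjusted p = 6.23e-07) and 2.50 ± 0.39 after 24 h (adjusted p = 1.40e-05). The call at 22 °C rests on 14, 33 and 20 counts in gemin2 against 5, 5 and 6 in WT, and it was lost without library A or C of WT (adjusted p = 0.0673 and 0.0679) or library B of gemin2 (adjusted p = 0.143). The next intron, I014, had 0.822 ± 0.0519% in gemin2 and 0.536 ± 0.134% in WT after 1 h (SD, n = 3 each) and was not called.

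**Figure D5:**
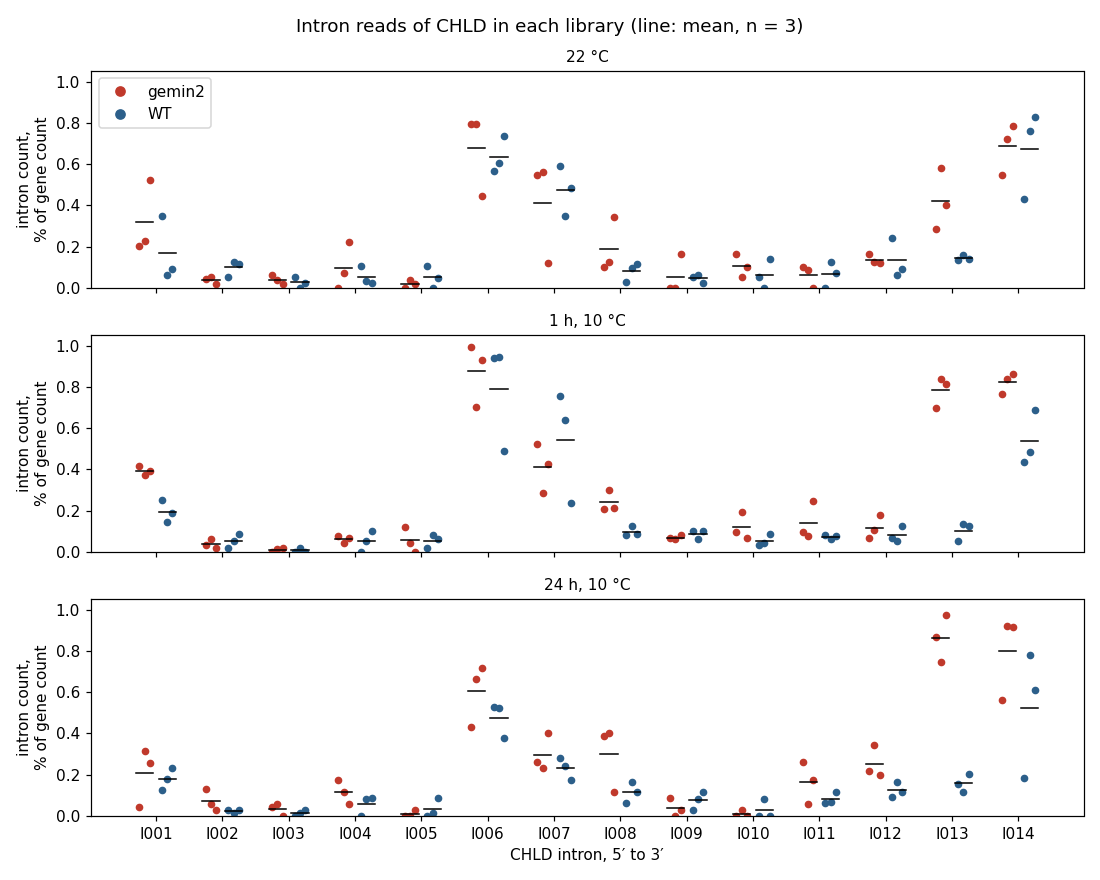
Intron counts as percent of the CHLD gene count (vertical axis, from 0) for the 14 introns of CHLD in transcript order, in gemin2 (red) and WT (blue), in the 3 conditions from top to bottom, with 1 point per library and a line at the mean. Intron I013 separates the genotypes in every condition, at 0.748% or more in gemin2 after 24 h and 0.203% or less in WT.

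The other called introns belong to CHLH, PORB and CRD1. PORB I003 (chromosome 4, 13726859 to 13726951) made up 0.359, 0.406 and 0.553% of the gene's count in gemin2 after 1 h, against 0.213, 0.130 and 0.228% in WT (1.20 ± 0.32, adjusted p = 0.00853). PORB I002 had 0.503 ± 0.105% in gemin2 and 0.285 ± 0.0338% in WT (0.82 ± 0.27, adjusted p = 0.0413), and CHLH I004 had 0.207 ± 0.0174% and 0.126 ± 0.0250% (0.72 ± 0.20, adjusted p = 0.0124). The count of PORB itself was lower in gemin2 after 1 h. Without the gene's count in the model, neither PORB intron passed (0.33, adjusted p = 0.463, and 0.71, adjusted p = 0.165). Leaving out 1 library lost the I002 call in 5 of 6 fits and the I003 call in 2 of 6. The call of CHLH I004 was lost without library B of WT or library C of gemin2 (adjusted p = 0.11 and 0.051). Within a genotype, CHLH I002 was lower after 1 h than at 22 °C in WT (-0.68 ± 0.16, adjusted p = 0.00846), where 2.24% of all introns tested were lower. In gemin2 after 24 h CRD1 I005 and CHLD I013 were higher than at 22 °C (0.81 ± 0.19 and 1.01 ± 0.32, adjusted p = 0.00373 and 0.0332), where 11.5% were higher. The CHLD call was lost in 5 of 6 fits without 1 library, and neither intron passed without the gene's count in the model (adjusted p = 0.833 for CRD1 and 0.304 for CHLD).

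Of the 8 splicing bins 7 were tested, and none was called between gemin2 and WT in any condition, where 2.73% of 3809 bins tested were called at 22 °C, 8.45% after 1 h and 6.06% after 24 h. The counts at an unadjusted p under 0.05 were 0, 5 and 2 of the 7. CRD1 E002, a retained intron of 77 bases, took the largest share of its gene's reads, at 19.6 ± 1.70% in gemin2 and 23.9 ± 3.92% in WT after 24 h (SD, n = 3 each), and was named after its values were seen. Its log2 change in gemin2 against WT just missed the threshold after 24 h (-0.29 ± 0.09, adjusted p = 0.052). After 1 h the change was -0.22 ± 0.09 (adjusted p = 0.117). The gene has an effective width of 1493 bases, so these shares of reads are not shares of transcripts that keep the intron. For genes with no called region, the tested region with the largest share was I001 in HEMA1 (0.225% in gemin2 and 0.125% in WT after 24 h), I002 in CHLI1 (0.205% and 0.221%) and E004 in PORC (9.97% and 10.9%). In WT CHLH E002 was lower after 1 h than at 22 °C (-0.33 ± 0.08, adjusted p = 0.0225), and in gemin2 CAO E005 was higher after 24 h than at 22 °C (1.37 ± 0.39, adjusted p = 0.0383), where 3.18% of bins were lower and 3.05% higher. The CAO call was lost in 5 of 6 fits without 1 library and the CHLH call in 5 of 6. The count of CAO itself was lower in gemin2 after 24 h than at 22 °C. Without the gene's count in the model, neither bin passed (0.20, adjusted p = 0.726 for CAO, and -0.26, adjusted p = 0.214 for CHLH). The CAO call was also lost with only the compared groups in the fit (adjusted p = 0.0501).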

How the data were processed

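Poly(A) RNA of whole plants was sequenced in 18 libraries, 3 in each of 6 groups, with a TruSeq RNA kit, per the labels' protocols; this kind of kit does not mark strand. The submitters' processing notes name TopHat2 2.0.9, the build TAIR10, R 3.0.2 and edgeR 3.4.2. The deposited values are whole-number counts of reads per gene, intron and splicing bin. No source used here names the counting program or says whether it used strand. The authors' deposited tables of comparisons were not used. Columns carry letters that no label ties to the replicate numbers, so libraries were assigned to groups only.

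Gene counts were filtered with filterByExpr, scaled by TMM and fitted over the 6 groups with edgeR 4.0.16 (glmQLFit with robust dispersion, glmQLFTest, limma 3.58.1, R 4.3.3). Introns and bins needed a mean of at least 10 counts and a gene mean of at least 50, at least 10 in each library, and had the gene's count as an offset. Adjusted p-values are Benjamini-Hochberg values over all features, with a threshold of 0.05. Each SE is the change divided by the square root of its F statistic. The fits were tested on simulated data. The 10 genes and all lists were chosen with earlier results of these data known. Named genes are the 10 members, GEMIN2, up to 3 genes per list and genotype comparison with the smallest adjusted p past 0.05, every called intron or bin of a member (else its tested region with the largest share), and per member the 3 genes, at a mean of at least 5 CPM, with the most similar log2(CPM + 0.5) profile. HEMB2, HO4, AP1, AG and AP3 passed no filter and were not tested. The genome was read by coordinates only for sequences, and 98.67% of 120457 introns matched to a strand had GT and AG ends there. Alternatives were DESeq2 1.42.0, RLE factors, other filters, no rRNA or organelle genes, no gene offset, a replicate block, only the compared groups, a fold threshold, and each library left out in turn. Intervals are SE or SD between libraries, and floors of 3 counts cover counting error only.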

Additional observations from a re-analysis of the deposited data

Results flagged for a closer look

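In 5 results a difference was noted, because the effect of cold differed between the genotypes in a test of that difference (edgeR's quasi-likelihood test of the interaction, gemin2 minus WT, 3 libraries per group). After 24 h at 10 °C the interaction was 1.0967 for HEMA1, 0.53981 for CHLH and 0.47901 for CRD1, each higher in gemin2 relative to WT than at 22 °C. It was -2.0882 for PORB after 24 h and -0.94786 after 1 h. The adjusted p-values were 0.00014, 0.0263, 0.00948, 3.91e-08 and 0.0166.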

How the results depend on the processing

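Of the values of single genes and regions under all alternatives, 2352 stayed on their side of the threshold, 91 lost the call, 49 gained one and 5 reversed. Among the 2352, the sign changed in 89, none of them called in either fit. No label says that library letters pair libraries. Deviations of same-letter libraries of gemin2 and WT correlated at 0.0434 to 0.0678 at 22 °C, -0.17 to 0.18 after 1 h and 0.138 to 0.303 after 24 h, and 12 of 18 libraries correlated best with their own letter. The replicate block called CHLH for gemin2 against WT at 22 °C and 24 h (adjusted p = 0.0466 and 0.0446), HEMA1 in WT (0.0311) and CHLI1 and GUN4 in gemin2 (0.0244 and 0.0331) at 24 h against 22 °C, CHLI1 in gemin2 at 24 h against 1 h (0.0325), and the interactions of CAO at 1 h (0.00794) and of CHLI1 and GUN4 at 24 h (0.0234 and 0.0403). No call of a member was lost with it. It gave 2 members called for the interaction at 1 h, 3 introns for WT at 1 h against 22 °C, 1 intron for gemin2 at 24 h against 1 h, and 1, 1 and 2 bins for gemin2 against WT at 1 h and 24 h and for WT at 1 h against 22 °C.

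With a change of at least 1 on the log2 scale required, members called in gemin2 against WT numbered 1, 1 and 1 at 22 °C, 1 h and 24 h. The member was PORA at 22 °C and after 1 h, where its calls add no support, and PORB after 24 h. Against 22 °C the members called numbered 0 and 3 in gemin2 and 0 and 3 in WT after 1 h and 24 h. Between 24 h and 1 h they numbered 2 in gemin2 and 2 in WT, and for the interactions 0 and 2. Introns then numbered 2 for gemin2 against WT at 1 h, 0 for WT at 1 h against 22 °C and 1 for gemin2 at 24 h against 22 °C, with 0 bins for WT at 1 h against 22 °C. DESeq2 gave 3 genes for the interaction at 1 h, 2 introns and 2 bins for WT at 1 h against 22 °C, and 1 bin for gemin2 at 24 h against 1 h. With only the compared groups there were 0 genes for gemin2 at 1 h against 22 °C, 0 and 7 introns for gemin2 against WT at 22 °C and 1 h, 2 introns and 2 bins for WT at 1 h against 22 °C, and 0 bins for gemin2 at 24 h against 22 °C. A mean of at least 3 counts gave 1 bin for gemin2 against WT at 24 h.

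Without the gene's count as offset, changes of the whole gene enter by construction. Introns called were then 8 for gemin2 against WT at 24 h, 4 in gemin2 and 6 in WT at 24 h against 22 °C, 2 in WT at 1 h against 22 °C, 7 in gemin2 and 4 in WT at 24 h against 1 h, and 4 for the interaction at 24 h. Bins were 1, 1 and 3 for gemin2 against WT at 22 °C, 1 h and 24 h, 4 in gemin2 and 5 in WT at 24 h against 22 °C, 2 in WT at 1 h against 22 °C, 3 in gemin2 and 2 in WT at 24 h against 1 h, and 3 for the interaction at 24 h. The PORB introns I002 and I003 then reversed, to -1.27 and -1.25 for gemin2 against WT at 24 h and to -1.45 and -1.04 for gemin2 at 24 h against 22 °C, as did I002 for the interaction at 24 h (-2.01).

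Leaving out 1 library in turn gave 2 to 3, 6 to 7 and 5 to 6 members called for gemin2 against WT at 22 °C, 1 h and 24 h. It gave 0 to 1 and 6 to 7 for gemin2 and 4 to 6 and 7 to 9 for WT at 1 h and 24 h against 22 °C, and 0 to 2 and 3 to 5 for the interactions. Introns ranged over 0 to 1, 1 to 4 and 1 to 2 for gemin2 against WT, 0 to 1 for WT at 1 h and at 24 h against 22 °C, 1 to 2 for gemin2 at 24 h against 22 °C and 0 to 1 against 1 h. Bins ranged over 0 to 3 and 0 to 1 for gemin2 against WT at 1 h and 24 h, and 0 to 1 for WT at 1 h against 22 °C and for gemin2 at 24 h against 22 °C and against 1 h. Unless the construction shows it, the cause was not tested. Depth limits PORA and most introns, which rest on few counts.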
